A study of Homo sapiens with 12 samples.

Results

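The comparison described here is SPX5551 alone against its vehicle group, DMSO, in REC1, an established human cell line of mantle cell lymphoma, a B-cell cancer driven by cyclin D1. SPX5551, which the column headers call pol5551, is presented in the study's title as an inhibitor of the chemokine receptor CXCR4. It used 6 of the 12 RNA sequencing libraries of the study, 3 with SPX5551 and 3 with DMSO, collected at 4, 8 and 12 h, and each treatment had a single library at each time. The other 6 libraries, ibrutinib and the combination of ibrutinib with SPX5551 at the same times, entered the fit to estimate the spread and served as a separate comparison of SPX5551 on top of ibrutinib. Libraries were assigned by column header, and 14412 of the 60483 genes in the table had enough counts to be tested. No source used here gives the doses, the culture dates or the number of separate cultures. With no second library at any time, the 3 times acted as the replicates (n = 3 per group, time as a block), and a p-value reflects no more than the spread among these libraries, which may be technical. The study asked what blocking CXCR4 does to lymphoma cells alone and with other drugs.

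CXCR4 is a receptor coupled to inhibitory G proteins, and its ligand CXCL12 is made mainly by stromal cells of bone marrow and lymph node. Binding of the ligand sets off PI3K and MAP kinase signalling, moves B cells towards stroma and is ended by receptor phosphorylation and internalisation. A second receptor, ACKR3, also binds CXCL12, and MIF, HMGB1 and ubiquitin have been described as further ligands or partners of the axis.

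The cells carried the B-cell markers of their label. Across the 6 libraries, MS4A1 (CD20), CD79A and PAX5 were at 776 to 822, 713 to 1141 and 360 to 693 CPM (counts per 1e6 counts of a library), and the cyclin D1 gene CCND1 at 1495 to 1711 CPM. SOX11 was low at 4.47 to 7.33 CPM, and CD5 was nearly absent at 0.0494 to 0.652 CPM. Of the defining markers of other cell types, CD2 had 0 counts, LYZ at most 4 and MPO at most 1, while CD3D had 54 to 98 counts, CD3E 78 to 110, and PDGFRB reached 40.0 and EPCAM 8.30 CPM. The summed level of 11 T-cell markers was 165 to 380 CPM in DMSO and 254 to 389 CPM in SPX5551, nearly all of it from the T-cell receptor segment TRBC2, and that of 11 myeloid markers 1.59 to 2.26 and 1.80 to 2.42 CPM. Total counts ran from 19497655 to 26600088. Sample titles match the headers, but the free-text descriptions point to columns of other treatments, and the molecule field says genomic DNA although the protocol describes poly(A) RNA. All values follow the headers.

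No gene passed an adjusted p of 0.05 between SPX5551 and DMSO among 14412 tested (edgeR quasi-likelihood test, Benjamini-Hochberg; smallest adjusted p = 0.598). At an unadjusted p under 0.05 there were 1200 genes (8.33%), 464 higher (3.22%) and 736 lower (5.11%) with SPX5551. The 3 SPX5551 values lay wholly above the 3 DMSO values in 543 genes (3.77%) and wholly below in 510 (3.54%). The differences were of about the size of their errors. The median absolute log2 fold change was 0.13, the median standard error 0.13, and of 10113 genes with a mean log2 CPM of at least 2 only 2 had an absolute log2 fold change of 1 or more. DESeq2, limma-voom and limma-trend also called 0 genes. Everything named below is therefore a description of genes that missed the adjusted threshold.

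The 3 times did not contribute equally, and the 12 h pair differed along transcript length. For each library, the deviation of every gene from its 12-library mean was ranked against the length of its longest annotated transcript (Spearman's rank correlation, 14316 genes). At 4, 8 and 12 h this correlation was -0.15, -0.30 and 0.37 in DMSO and -0.20, -0.40 and -0.38 in SPX5551. The DMSO library at 12 h thus leaned towards long transcripts and the SPX5551 library at 12 h towards short ones, whereas both groups leaned short at 8 h. At 12 h the ibrutinib and combination libraries leaned long as well (0.32 and 0.24), so the SPX5551 library was the one of the 4 at that time that leaned short. The SPX5551 minus DMSO difference had a rank correlation with length of 0.01 at 4 h, -0.07 at 8 h and -0.49 at 12 h. In the decile of the shortest genes, with a median longest transcript of 712.5 bases, the median difference at 12 h was 0.34 on the log2 scale. In the longest decile, with a median of 9110 bases, it was -0.44, and 19.9% of these genes were lower at an unadjusted p under 0.05 against 1.81% in the shortest decile. The mean rank correlation of the SPX5551 libraries was 0.30 below that of DMSO by longest transcript (-0.297; exact two-sided permutation p = 0.2) and 0.10 below by median transcript (-0.102; p = 0.4), where 20 arrangements allow no p under 0.1. Within times, SPX5551 was below DMSO in all 3 pairs by either measure (longest -0.05, -0.10 and -0.75, median -0.02, -0.01 and -0.27 at 4, 8 and 12 h). The exact permutation p within times, added after seeing the data, was 0.25 for both, the smallest that 8 arrangements allow.

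**Figure D1:**
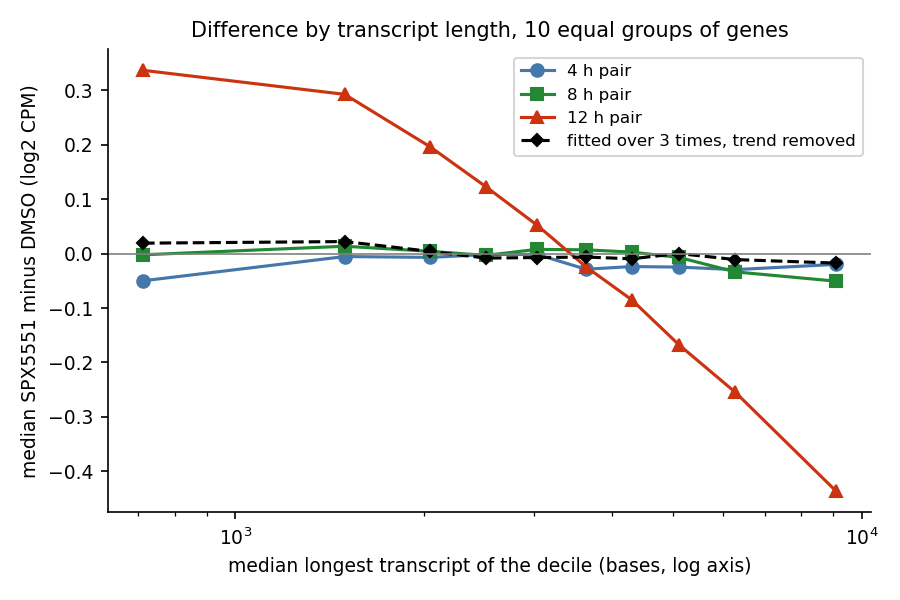
Median SPX5551 minus DMSO difference (log2 CPM, vertical axis) in 10 groups of genes ordered by longest transcript (bases, log horizontal axis), at 4, 8 and 12 h, with the fitted value after removing each library's length and GC trend. The 12 h line runs from 0.34 in the shortest decile to -0.44 in the longest, and the other lines stay near 0.

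The 12 h difference was also the widest. Among 7600 genes whose mean log2 CPM was 4 or more, the 4, 8 and 12 h pairs had 91, 10 and 1028 that differed by at least 0.5 on the log2 scale. Across these genes the 4 h differences correlated with those at 8 h at r = 0.04 and with those at 12 h at r = 0.02, and the 8 h with the 12 h differences at r = 0.27, given as a description across genes. In its deviations from the 12-library mean, the SPX5551 library of 12 h was closest to the SPX5551 library of 8 h (r = 0.67) and next to the DMSO library of 8 h (r = 0.49), with r = -0.34 to the DMSO library of its own time. The labels do not settle whether libraries were exchanged between times, and this was not tested. If they were, the 12 h differences and the time block would not mean what the headers say. From 8 to 12 h, DMSO and the combination moved alike (r = 0.89), while SPX5551 followed their mean at r = 0.26 and ibrutinib at r = 0.29. In 15 genes that changed with ibrutinib against DMSO, the SPX5551 libraries of 4, 8 and 12 h had median differences from DMSO of -0.38, 0.17 and 0.18, with 13, 5 and 5 of 15 lower. The ibrutinib library of 12 h had -1.37, where the choice of genes largely fixes the direction. These comparisons share the DMSO libraries. Because of the 12 h pair, counts below are also given without that time and after a per-library trend on transcript length and GC content was removed. Without 12 h, 0 of 14533 genes passed and 228 (1.57%) were higher and 263 (1.81%) lower at an unadjusted p under 0.05. With the trend removed, 0 passed (smallest adjusted p = 0.574), and 475 (3.3%) were higher and 653 (4.53%) lower. How far library preparation contributed to the length trend was not tested.

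No tested transcript of the CXCR4 axis was below an unadjusted p of 0.05. CXCR4 (chromosome 2, 136114349 to 136118165, hg38) had 17.9, 26.0 and 20.9 CPM at 4, 8 and 12 h in DMSO and 22.1, 26.7 and 20.95 CPM in SPX5551, a log2 fold change of 0.12 ± 0.13 (SE). The groups overlapped, and the single visible gap was at 4 h. ACKR3, the scavenging second receptor, stayed between 1.04 and 1.44 CPM in the 6 libraries. CXCL12 had 0 counts in all 6, which allows up to 3 counts or 0.113 to 0.154 CPM per library for counting error alone, so no transcript of the ligand was detectable in these cultures at this depth. MIF, a cytokine that can bind CXCR4, had 16.9, 16.6 and 12.2 CPM in DMSO against 7.51, 18.6 and 17.0 CPM in SPX5551, so its direction turned between 4 h and the later times. MIF shares exons with another annotated gene and an antisense transcript, and its counts are uncertain for that reason. HMGB1, a nuclear protein that can act with CXCL12 outside the cell, had 679, 651 and 600 CPM in DMSO against 688, 694 and 724 CPM in SPX5551, groups that did not overlap, with the widest gap at 12 h (0.13 ± 0.09). The ubiquitin gene UBB had 1155, 1113 and 968 CPM against 1191, 1132 and 1157 CPM, higher at each time with overlapping groups (0.11 ± 0.10). Of the 26 tested genes for G proteins, regulators of G-protein signalling, receptor kinases and arrestins, 0 were below an unadjusted p of 0.05, and their median log2 fold change was -0.0011 (13 positive, 13 negative).

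The clearest group that leaned higher was that of amino acid and unfolded protein stress, genes induced through the transcription factors ATF4, CHOP and XBP1 when amino acids are short or proteins misfold. Of 29 tested members, 11 were higher and 1 lower at an unadjusted p under 0.05, against 3.22% and 5.11% of all tested genes. The adjusted threshold was passed by 0. Members higher at all 3 times numbered 13 of 29, against 12.9% of all tested genes. SPX5551 lay wholly above DMSO in 3 (ATF3, DDIT3 and PSAT1), against 3.77% of all tested genes. The median log2 fold change of the list was 0.12, with 0.03, 0.23 and 0.15 at 4, 8 and 12 h, against -0.0047 over all tested genes. Without 12 h the count of higher members stayed at 11 (1.57% of all genes were higher). It was 7 without 4 h (2.96%) and 3 without 8 h (3.71%), the 3 being ATF3, DDIT3 and PHGDH. With the trend removed the count was 12 (3.3% of all genes were higher). The list was chosen with earlier results of these data known and is no independent evidence of its direction.

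ATF3, a stress-induced transcription factor of the ATF family (chromosome 1, 212565334 to 212620777), had 3.74, 2.09 and 4.18 CPM at 4, 8 and 12 h in DMSO and 5.30, 7.75 and 7.03 CPM in SPX5551. Every SPX5551 value was above every DMSO value, most so at 8 h, and the log2 fold change was 1.01 ± 0.26 (SE). DDIT3, which encodes CHOP, had 55.7, 61.9 and 71.5 CPM in DMSO against 71.9, 86.5 and 96.7 CPM in SPX5551. These groups did not overlap either, and the 3 paired differences of DDIT3 were alike at 0.37, 0.48 and 0.44. Its log2 fold change was 0.43 ± 0.12 (SE). DDIT3 overlaps the exons of MARS on the opposite strand.

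The 3 enzymes that make serine from a glycolytic intermediate were each higher at every time. PHGDH, the first of them, had 16.3, 21.3 and 22.5 CPM in DMSO against 20.5, 26.1 and 28.6 CPM in SPX5551 (log2 fold change 0.32 ± 0.09). PSAT1, the second, had 56.4, 55.1 and 55.1 CPM against 63.9, 69.9 and 65.8 CPM (0.26 ± 0.09). PSPH, the last step, had 13.1, 17.9 and 18.6 CPM against 17.5, 24.9 and 20.7 CPM (0.35 ± 0.10). PSAT1 alone of the 3 had groups that did not overlap, since the DMSO levels of the other two increased between 4 h and later times.

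Other members were uneven over time. CHAC1, which degrades glutathione, had 1.98, 2.66 and 2.92 CPM in DMSO against 4.01, 7.53 and 2.87 CPM in SPX5551. It was thus higher at 4 and 8 h and level at 12 h (log2 fold change 0.90 ± 0.32). ASNS, asparagine synthetase, had 50.8, 33.2 and 34.0 CPM against 51.7, 50.0 and 45.2 CPM, so its gap lay at 8 and 12 h (0.35 ± 0.13). DNAJB9, a chaperone of the endoplasmic reticulum, SESN2, an inhibitor of mTORC1, and DDIT4, another such inhibitor, had log2 fold changes of 0.29, 0.30 and 0.35. VLDLR, the remaining member, was below 1.1 CPM throughout. The general chaperones HSPA5 and HSP90B1 and ATF4 itself were not below an unadjusted p of 0.05. SLC7A1, a carrier of cationic amino acids, was the member that leaned lower, with 77.6, 53.3 and 78.3 CPM against 67.8, 51.6 and 48.3 CPM (-0.32 ± 0.12), and its difference lay mostly at 12 h.

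**Figure D2:**
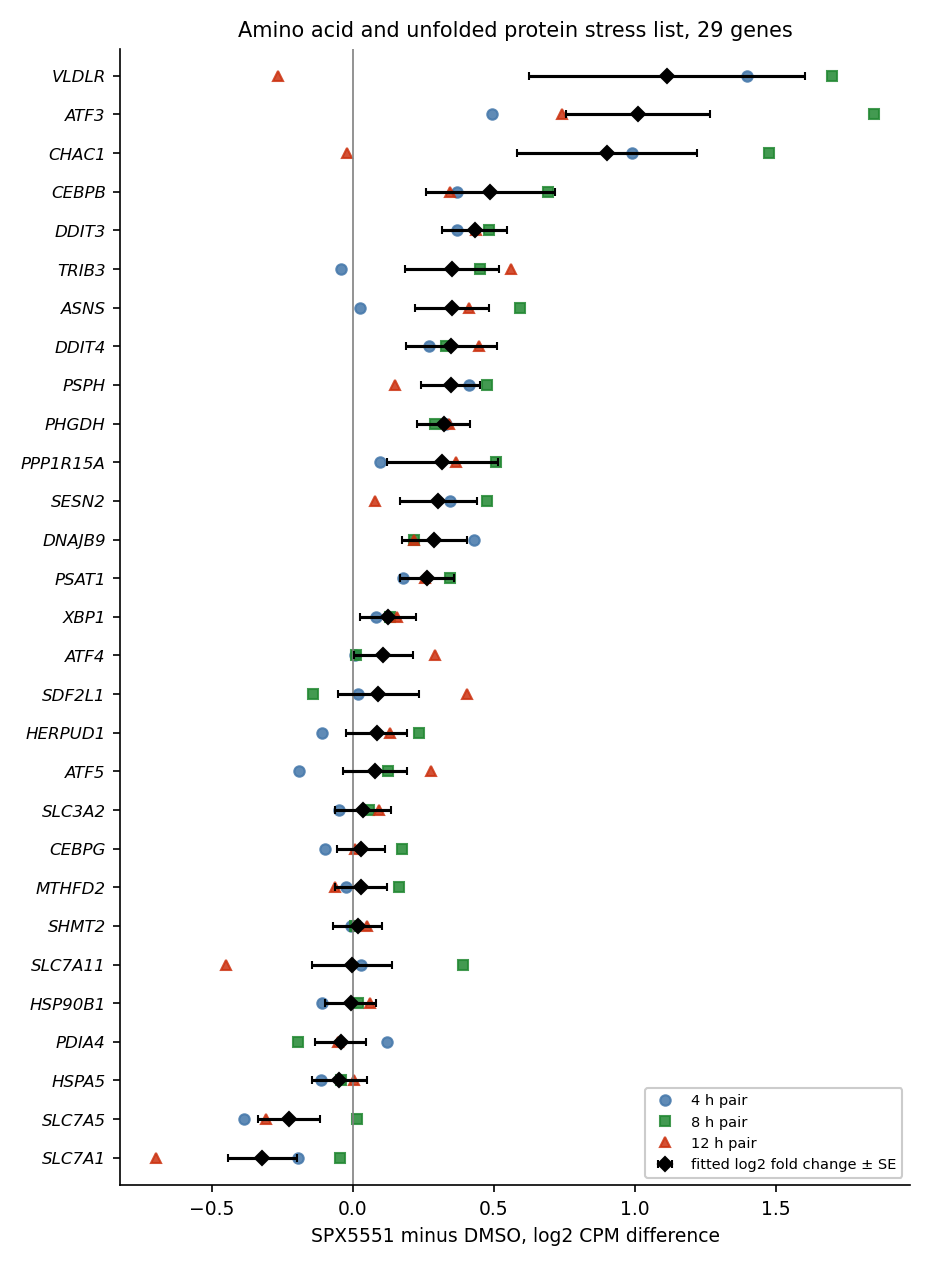
SPX5551 minus DMSO difference (log2 CPM, horizontal axis) for the 29 tested genes of the amino acid and unfolded protein stress list, with the 4, 8 and 12 h pairs and the fitted log2 fold change ± SE. Fitted values run from 1.11 (VLDLR) to -0.32 (SLC7A1), and ATF3, DDIT3, PHGDH, PSPH and PSAT1 have all 3 pairs above 0.

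Promoter stretches are shown for 3 of these genes because ATF4 and CHOP bind composite elements whose core can be written TGATGNAA. It was searched on both strands, from 250 bases before to 50 after the annotated start, in RefSeq promoters of build GRCh38.p14. The letters occurred in 6 of the 26 list members with a promoter sequence (23.1%) and in 1003 of 27305 promoters in all (3.67%). Those members were ATF3, CHAC1, ASNS, SLC3A2, SLC7A1 and HERPUD1, so genes that leaned higher, lower or neither carried them. The stretches below read 5′ to 3′ along the gene's strand with the match in capitals.
ATF3, chr1:212565196-212565243, plus strand: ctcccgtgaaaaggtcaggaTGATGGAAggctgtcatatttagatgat
CHAC1, chr15:40953242-40953289, plus strand, match as its reverse complement: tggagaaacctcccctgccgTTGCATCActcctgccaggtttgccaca
ASNS, chr7:97872449-97872496, minus strand: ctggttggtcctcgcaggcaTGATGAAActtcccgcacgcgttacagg
The matches began 191, 209 and 68 bases before the start site (positions -191, -209 and -68). A match is a description of the letters, and binding at these places was not measured.

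Sterol and fatty acid synthesis leaned lower. Of 31 tested members, 0 were higher and 9 lower at an unadjusted p under 0.05, against 3.22% and 5.11% of all tested genes. Lower at all 3 times were 10 (15.4% of all genes were), and 5 lay wholly below DMSO (3.54%). Among the 9 at an unadjusted p under 0.05 were FASN, FADS1, ACLY, SCD, ACACA, DHCR7 and ELOVL6. The list's medians were 0.01, -0.17 and -0.31 in the 4, 8 and 12 h pairs. Without 12 h there were 2 lower members, FASN and MVD (1.81% of all genes were lower). There was 1, FASN, without the SPX5551 library of 12 h (2.37% of all genes were lower) and also without the DMSO library of 12 h (1.44%). With the length and GC trend removed there were 10 (4.53%).

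FASN, fatty acid synthase (chromosome 17, 82078333 to 82098332), was the member with the smallest p. It had 213, 267 and 267 CPM at 4, 8 and 12 h in DMSO and 143, 195 and 176 CPM in SPX5551. All SPX5551 values lay below all DMSO values, with paired differences of -0.57, -0.46 and -0.61, so the 3 pairs of FASN were alike. The log2 fold change was -0.55 ± 0.13 (SE; adjusted p = 0.598, edgeR) and -0.35 with the trend removed. SCD, which desaturates stearate, had 1382, 1373 and 1315 CPM in DMSO against 1251, 1203 and 852 CPM in SPX5551. FADS1, a desaturase of polyunsaturated fatty acids, had 195, 179 and 182 CPM against 177, 154 and 128 CPM. In both the groups were separate, and most of the gap arose at 12 h. ACLY, which supplies cytosolic acetyl-CoA, had 283, 345 and 369 CPM against 285, 278 and 239 CPM, with no difference at 4 h. ACACA, which makes malonyl-CoA, showed the same order, with paired differences of -0.01, -0.27 and -0.93.

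Ribosome biogenesis also leaned lower, in a different order over time. Of 25 tested members, 7 were lower and 0 higher at an unadjusted p under 0.05, against 5.11% and 3.22% of all tested genes. Lower at all 3 times were 10 (15.4% of all genes were). The list's median was -0.21 at 4 h and -0.17 at 8 h, with 1 and 3 of 25 positive, and 0.0029 at 12 h with 14 of 25 positive. The count of lower members was 3 without 12 h (MYBBP1A, WDR43 and PPAN), where 1.81% of all genes were lower. It was 2 without the DMSO library of 12 h (MYBBP1A and WDR43, against 1.44%) and 8 with the trend removed (4.53%). MYBBP1A, a nucleolar protein of RNA polymerase I transcription, had 163, 148 and 158 CPM in DMSO against 135, 119 and 127 CPM in SPX5551. Its groups did not overlap, and its paired differences were even at -0.27, -0.32 and -0.32 (log2 fold change -0.30 ± 0.09). UTP20, a part of the small-subunit processome, had 146, 117 and 156 CPM against 127, 98.4 and 86.6 CPM (-0.44 ± 0.14). WDR43, another processome protein, had 423, 265 and 291 CPM against 317, 247 and 236 CPM, with the widest gap at 4 h. NOLC1, a nucleolar chaperone, and POLR1A, the largest subunit of RNA polymerase I, had log2 fold changes of -0.26 and -0.39. POLR1B and NOP2 completed the 7.

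Promoters of this group are shown because the E-box CACGTG, the site read by MYC with MAX, was frequent in them. It occurred in 9 of the 20 members with a RefSeq promoter (45.0%) and in 2030 of 27305 promoters in all (7.43%). The 9 included UTP20, MYBBP1A, WDR43 and NOP2, and UTP4, a further processome gene whose log2 fold change was -0.16 ± 0.08. For UTP20 and UTP4 the E-box lay just before the start site, beginning at -10 and -16, and the stretches end at the base before it.
UTP20, chr12:101280075-101280104, plus strand: gcgccgttcttttttccgtcCACGTGaccc
UTP4, chr16:69132613-69132648, plus strand: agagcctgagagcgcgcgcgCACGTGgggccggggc
The match says nothing of occupancy, which was not measured.

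**Figure D3:**
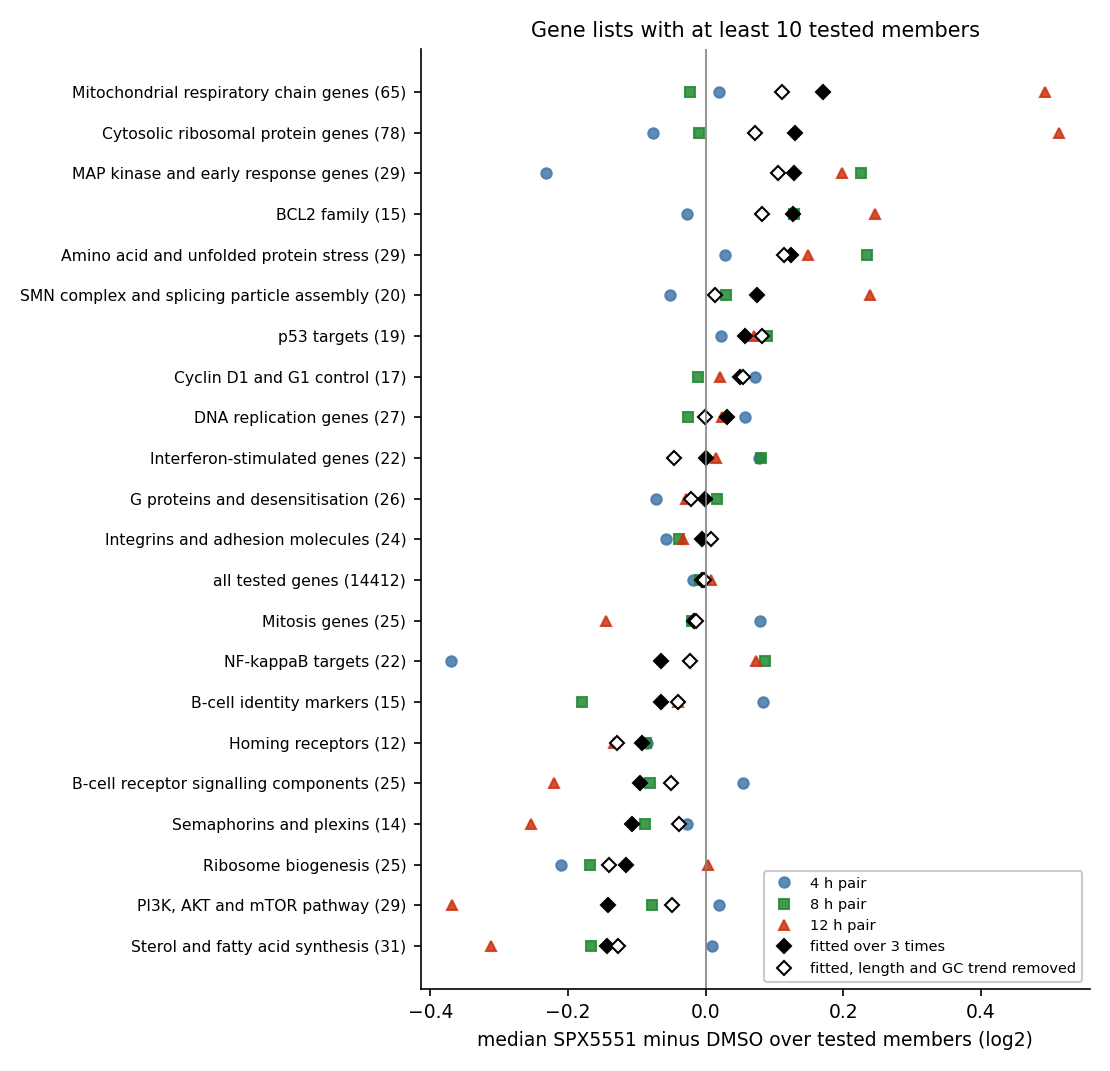
Median SPX5551 minus DMSO difference (log2, horizontal axis) over the tested members of gene lists with at least 10 of them (number in brackets), at 4, 8 and 12 h, fitted over the 3 times, and fitted with the length and GC trend removed. The ribosomal protein and respiratory chain lists sit far right at 12 h only (0.51 and 0.49), and the stress list is right of 0 at every time.

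Among single genes, those with the smallest p and the same sign at 3 times were read out by rule, 10 in each direction. The 10 higher genes had log2 fold changes of 0.28 to 1.07, and the 10 lower ones of -0.40 to -0.59. Their transcripts differed in length, with a median longest transcript of 1974.5 bases in the higher and 8619 bases in the lower genes, and the 12 h difference was the widest of the 3 in 8 and 10 of them. With the length and GC trend removed, all 20 kept an unadjusted p under 0.05. Since the rule chose them by this contrast, their direction is no separate support.

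RPS27AP16 was the higher gene with the smallest p, at 13.7, 13.3 and 12.8 CPM in DMSO against 25.4, 25.8 and 34.0 CPM in SPX5551 (log2 fold change 1.07 ± 0.23). It is a processed pseudogene of the ribosomal protein gene RPS27A, so its reads may be shared with the parent gene and its level is uncertain. GCA, which encodes the calcium-binding protein grancalcin, had 9.14, 9.04 and 8.20 CPM against 13.4, 11.7 and 12.4 CPM (0.51 ± 0.13). In both genes every SPX5551 value lay above every DMSO value. CHMP5, of the ESCRT membrane-sorting machinery, had 44.4, 51.6 and 51.6 CPM against 54.5, 60.0 and 64.9 CPM, again with no overlap. WIPI1, an autophagy protein that binds phosphoinositides, NQO1, a quinone reductase of the oxidative stress response, and PCLAF, a partner of the replication clamp PCNA, had log2 fold changes of 0.51, 0.44 and 0.35 with overlapping groups. DHRS2, a short-chain dehydrogenase, was low at 2.56 to 4.85 CPM in DMSO against 5.17 to 9.41 CPM in SPX5551 (0.74). AC003102.1 (0.47) lies antisense to UBTF, and no source used here says how the counting treated strand.

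PLXNA1, a receptor for semaphorins that guides cell movement (chromosome 3, 126988594 to 127037392), had the smallest p of the lower genes. It had 169, 100 and 111 CPM at 4, 8 and 12 h in DMSO and 118, 79.4 and 72.0 CPM in SPX5551, a log2 fold change of -0.49 ± 0.11 (SE). Levels were highest at 4 h in both groups, which overlapped, and the paired differences were -0.52, -0.34 and -0.62. MYO1E, a class I myosin at the cell membrane, had 53.8, 35.4 and 39.9 CPM against 43.1, 27.0 and 27.0 CPM (-0.42 ± 0.10). GEMIN5, which delivers small nuclear RNAs to the SMN complex, had 81.1, 68.1 and 89.4 CPM against 68.6, 51.3 and 56.8 CPM (-0.44 ± 0.10). Its value with the trend removed was -0.36, the smallest p among the lower genes of that fit. NOTCH1, a receptor recurrently mutated in this lymphoma, had 53.3, 74.9 and 92.5 CPM against 43.1, 62.3 and 60.2 CPM (-0.40 ± 0.10). MPEG1, which encodes the pore-forming protein perforin-2, LONRF2, ANKRD33B and AHDC1 had log2 fold changes of -0.56, -0.59, -0.47 and -0.41. In the same rule with the trend removed, PGPEP1, CCDC32, KDSR, TCEANC2, RCAN3, MANBA and SDCBP joined RPS27AP16 as higher, with 0.26 to 0.48 for the 7, and CCDC86, FAM208B (now TASOR2), WDR43, ZNF143, PPAT and EIF4A1 joined MPEG1 and GEMIN5 as lower. EIF4A1 shares exons with a read-through transcript of SENP3, and how the counting divided reads between them is not given in the sources used here, so its 7.79 to 15.0 CPM are uncertain.

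**Figure D4:**
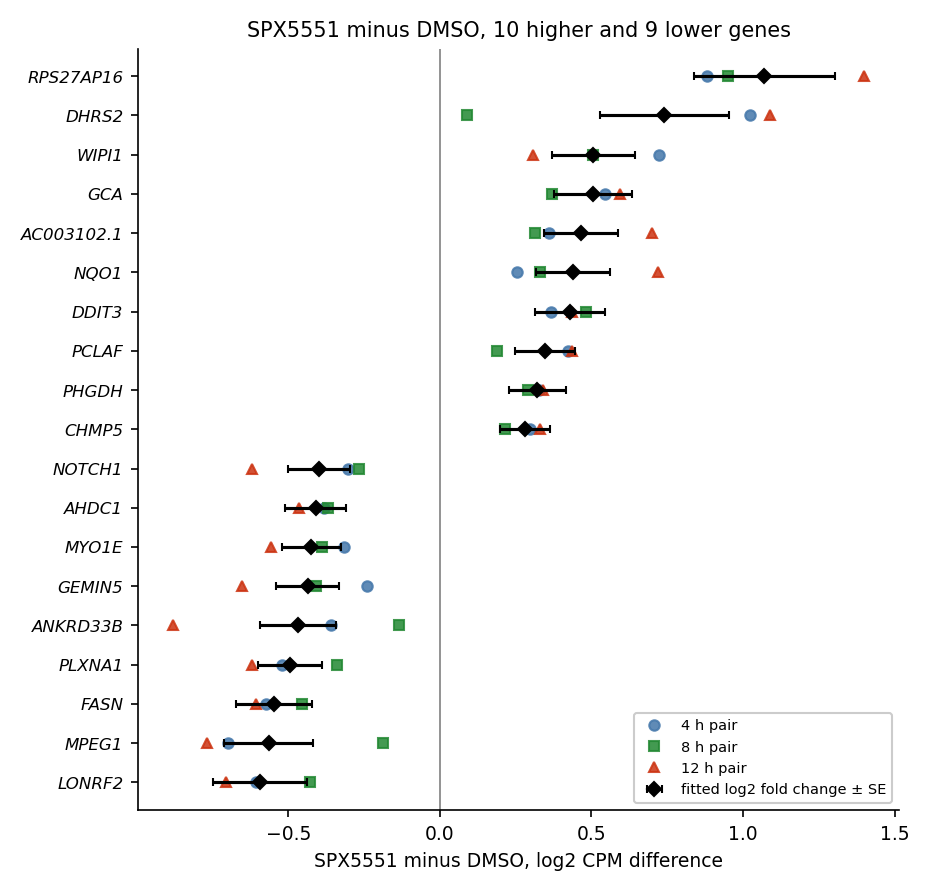
SPX5551 minus DMSO difference (log2 CPM, horizontal axis) at 4, 8 and 12 h for the 10 higher and 9 of the 10 lower genes named by rule, with the fitted log2 fold change ± SE. Fitted values run from 1.07 (RPS27AP16) to -0.59 (LONRF2), and the 12 h point is the outermost in 8 of the higher genes and in every lower gene plotted.

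Genes of the routes that CXCR4 is known to use had small differences. ROCK1, a kinase that promotes actomyosin contraction, had 148, 143 and 191 CPM in DMSO against 134, 123 and 114 CPM in SPX5551 (log2 fold change -0.36 ± 0.13). FLNA, an actin crosslinker, had 155, 268 and 352 CPM against 170, 212 and 216 CPM and so was not lower at 4 h. MYO9B, MYH9 and DOCK8 had similar courses. Of 29 genes of the PI3K, AKT and mTOR pathway, 4 were lower and 1 higher (EIF4EBP1) at an unadjusted p under 0.05, against 5.11% and 3.22% of all tested genes. RPTOR alone was lower without 12 h. With the trend removed the same 4 were lower and 2 were higher. RPTOR, the mTORC1 scaffold, had 42.6, 65.2 and 69.9 CPM against 36.9, 47.9 and 45.7 CPM (-0.43 ± 0.12), RPS6KB1 had -0.25, MTOR -0.34, and PIK3R4 was the other of the 4. Of 14 semaphorin and plexin genes, 2 were lower (5.11% of all genes were), PLXNA1 and PLXNB2 (-0.21, and -0.07 with the trend removed), and 1 was lower without 12 h.

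Early response genes of the MAP kinase route gave 2 higher and 0 lower members of 29 at an unadjusted p under 0.05, against 3.22% and 5.11% of all tested genes. With the trend removed there were again 2 higher and 0 lower, and without 12 h 1 was higher. The list's medians were -0.23, 0.23 and 0.20 in the 4, 8 and 12 h pairs. FOSB, a partner of JUN in AP-1, had 1.07, 0.766 and 0.554 CPM in DMSO against 1.85, 1.48 and 1.09 CPM in SPX5551, and DUSP1, a phosphatase that switches MAP kinases off, had 2.03, 2.50 and 2.26 CPM against 2.73, 3.46 and 2.97 CPM. Both were separate between groups and near the low end of the measured range. Of 22 NF-kappaB targets, 0 were higher and 1 (REL) lower at an unadjusted p under 0.05, against 3.22% and 5.11% of all tested genes. In the 4, 8 and 12 h pairs 1, 15 and 11 of the 22 were positive, with medians of -0.37, 0.09 and 0.07. Of all 14412 tested genes, 6687, 6982 and 7317 were positive in these pairs. REL, which encodes the NF-kappaB subunit c-Rel, was lower in all pairs, but its DMSO library of 12 h stood apart at 82.1 CPM, against 38.9 and 35.6 CPM at 4 and 8 h. SPX5551 had 32.5, 26.0 and 19.4 CPM. No homing receptor among 12 tested was below an unadjusted p of 0.05. CXCR5, which guides B cells to follicles, had 266, 276 and 271 CPM against 241, 237 and 242 CPM, groups that did not overlap (-0.18 ± 0.09). Of 24 integrin and adhesion genes, 2 were lower, near the 5.11% of all genes, and 0 without 12 h. They were CD44 (-0.24, and -0.15 with the trend removed) and ITGA4 (-0.36), the second mainly at 12 h.

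Among lists with at least 10 tested members, the widest shifts were those of short, abundant transcripts at 12 h. All 78 cytosolic ribosomal protein genes were positive at 12 h with a median of 0.51, against 14 of 78 at 4 h and 34 at 8 h. Their share of counts was 12.3, 12.8 and 9.01% in DMSO and 12.2, 12.8 and 12.4% in SPX5551 at 4, 8 and 12 h. At 12 h the share was 9.52% with ibrutinib and 9.45% with the combination, so the DMSO library was apart from the other 5 of this comparison and the SPX5551 library from the other 3 of its time. In the fit over 3 times, 0 of 78 were below an unadjusted p of 0.05, with a median of 0.13, or 0.07 with the trend removed. Of 65 nuclear genes of the respiratory chain, 8 were higher at an unadjusted p under 0.05 (3.22% of all genes were), and 62 were positive at 12 h (median 0.49). Without 12 h 1 was higher (SDHD, against 1.57% of all genes) and 2 were lower (NDUFB7 and ATP5F1D, against 1.81%). With the trend removed 7 were higher and 1 lower. SDHD, a subunit of succinate dehydrogenase, was the most even over time, with 118, 148 and 140 CPM against 143, 173 and 172 CPM (0.26 ± 0.09). ATP5PO, ATP5PB and ATP5F1C, subunits of ATP synthase, had log2 fold changes of 0.24, 0.23 and 0.22 with separate groups.

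A change of the SPX5551 effect with time was tested as a linear slope per hour. In 14412 genes 0 passed (smallest adjusted p = 0.477), and 1471 (10.2%) had an unadjusted p under 0.05. The smallest p among genes named by rule was that of SNORD104, a small nucleolar RNA, with 14, 14.8 and 5.74 CPM in DMSO against 5.20, 12.6 and 10.5 CPM in SPX5551 at 4, 8 and 12 h and a slope of 0.28 per hour on the log2 scale. It is 70 bases long, and such RNAs are mostly not polyadenylated, so its level is uncertain. BCL2A1, a BCL2-family survival gene, came next, with 29.1, 5.57 and 4.58 CPM in DMSO against 16.7, 9.66 and 11.1 CPM in SPX5551 at 4, 8 and 12 h. It was lower with SPX5551 at 4 h and higher later, a slope of 0.27 per hour on the log2 scale. MZT2B, of the microtubule-nucleating complex, followed the same course with a slope of 0.19 per hour.

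SPX5551 on top of ibrutinib, the combination against ibrutinib, is a comparison that shares no library with SPX5551 against DMSO. It had 791 genes with an adjusted p under 0.05 (5.49%), 302 higher (2.1%) and 489 lower (3.39%). Of the 1200 genes below an unadjusted p of 0.05 without ibrutinib, 212 (17.7%) were among them, which is 26.8% of the 791, and 211 of the 212 had the same sign. Fitted values of the comparisons correlated at r = 0.36 across genes and at 0.32 with the trend removed. The similarity was uneven by time. The 12 h difference without ibrutinib correlated at r = 0.87 with the 8 h difference on top of it (0.79 with the trend removed) and at 0.07 with the 12 h one. The ibrutinib library of 8 h and the DMSO library of 12 h both leaned towards long transcripts (rank correlations 0.41 and 0.37) and the combination library of 8 h, like the SPX5551 library of 12 h, towards short ones (-0.30 and -0.38). How much of the shared response follows this lean cannot be told apart from the treatments at those times.

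All 10 higher and all 10 lower genes named by rule had the same sign on top of ibrutinib. The share of all tested genes with the same sign in both comparisons was not computed. Fitted values correlated at r = 0.36 across all of them, so the shared sign is not particular to the named genes. On top of ibrutinib, an adjusted p under 0.05 was reached by 3 of the higher (AC003102.1, WIPI1 and CHMP5), against 2.1% of all tested genes. It was reached by 6 of the lower (PLXNA1, MYO1E, GEMIN5, MPEG1, LONRF2 and ANKRD33B), against 3.39%. In both comparisons fitted values fell with longest transcript (rank correlations -0.35 alone and -0.33 on top of ibrutinib). The higher genes had shorter transcripts than the lower ones (medians 1974.5 and 8619 bases). How far this lean contributed to their shared sign was not tested. MYO1E fell by 0.90 on the log2 scale (-0.90 ± 0.10 SE; adjusted p = 0.00149), GEMIN5 by 0.61 (-0.61) and MPEG1 by 0.64 (-0.64), while WIPI1 rose by 0.64 and CHMP5 by 0.36. FASN had -0.40 with an adjusted p of 0.0759. Of the gene lists, ribosome biogenesis had 15 of 25 members lower at an adjusted p under 0.05 on top of ibrutinib, with a median of -0.36. Sterol and fatty acid synthesis had 12 of 31, with a median of -0.32. Of all tested genes 3.39% were lower at that threshold. Among them were NOLC1 (-0.74), MYBBP1A (-0.58), SCD (-0.65), FADS1 (-0.65) and ELOVL6 (-1.01). The stress list had a fitted median of -0.11 there, from 0.05, 0.08 and -0.28 in the 4, 8 and 12 h pairs. At an adjusted p under 0.05, 0 of its 29 members were higher and 2 lower (SLC7A1 and SLC7A5), against 2.1% and 3.39% of all tested genes. ATF3 had 0.11 with an adjusted p of 0.840.

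**Figure D5:**
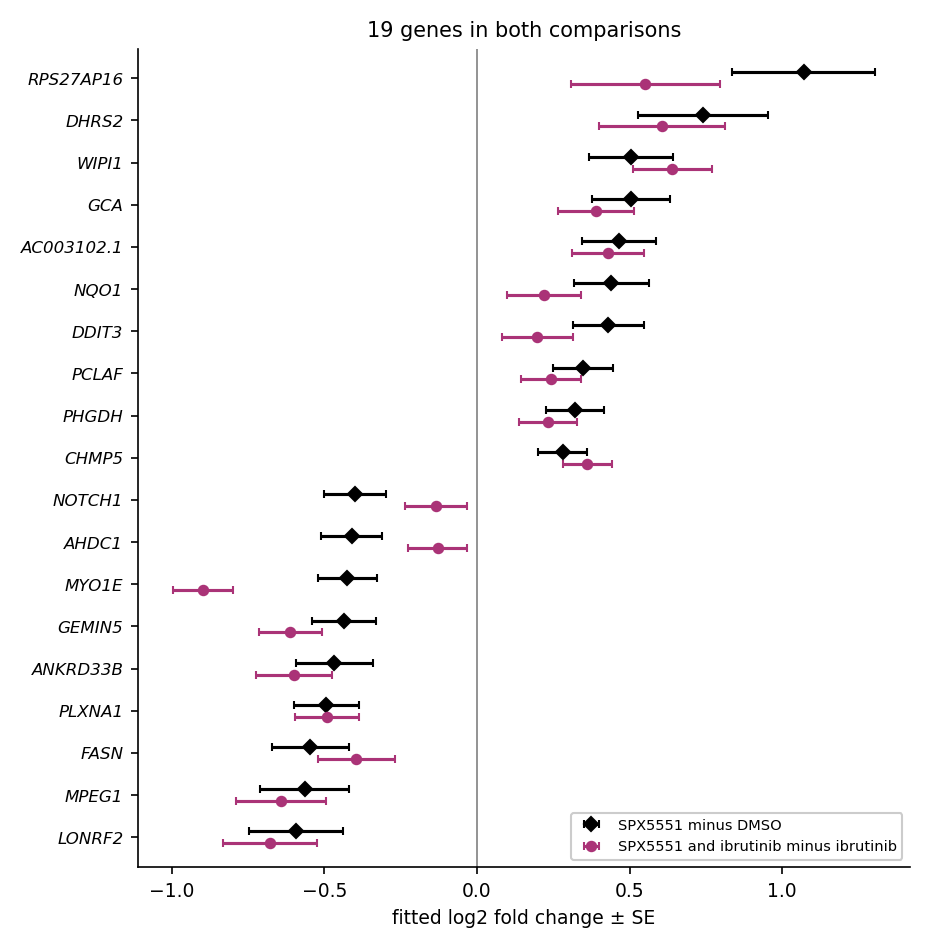
Fitted log2 fold change ± SE (horizontal axis) of the 10 higher and 9 of the 10 lower genes named by rule for SPX5551 minus DMSO and for the combination minus ibrutinib. All genes plotted lie on the same side of 0 in both, and MYO1E is lower on top of ibrutinib (-0.90) than alone (-0.42).

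The difference between these responses was itself tested as an interaction, and 0 of 14412 genes passed (edgeR, smallest adjusted p = 0.285; 845 genes, 5.86%, at an unadjusted p under 0.05). Those with the smallest p were PALD1, GPR183 and MIB2. GPR183 (EBI2), a receptor for oxysterols that steers B cells within lymph nodes, had 26.4, 33.1 and 32.5 CPM in DMSO against 27.2, 29.6 and 29.6 CPM in SPX5551, a log2 fold change of -0.08 ± 0.12, and fell by 1.06 on top of ibrutinib (-1.06; adjusted p = 0.00163). PALD1, a paladin phosphatase-like gene, had -0.03 alone and fell by 0.89 (-0.89) there. DESeq2 called both interactions and the fit with the trend removed called that of PALD1.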

How the data were processed

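Poly(A) RNA libraries were prepared with a directional kit, per the labels' protocols, and the submitters' processing notes name BWA and hg38; no source used here gives the counting tool, annotation or strand setting. The authors deposited raw counts per Ensembl gene (60483 genes, 12 columns) and log2 CPM for 14767 genes, whose scaling is not stated. Columns were assigned by header, and symbols came from GENCODE release 29. Genes passing filterByExpr by treatment were fitted in edgeR 4.0.16 (R 4.3.3) with TMM scaling, treatment and time as terms and all 12 libraries, adjusted by Benjamini-Hochberg. CPM of single genes are TMM-scaled and those of markers are not; log2 values carry a prior count of 2. SE is the absolute log2 fold change over the square root of F. The trend fit used splines with 5 degrees of freedom in longest transcript and GC per library as offsets. The script was tested on simulated counts. DESeq2 1.42.0 and limma 3.58.1 gave alternatives.

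The comparison, the gene lists and their members were chosen with earlier results of these data known. Named genes were, among genes with mean log2 CPM of at least 2 and one sign at 3 times, the 10 higher and 10 lower with the smallest p, 8 each way with the trend removed, up to 4 per list, CXCR4, ACKR3, CXCL12 and BTK, and 3 each for slope and interaction; further list members below an unadjusted p of 0.05 were named after their values were seen. BTK had a log2 fold change of -0.03. Replicate numbers follow accession order (replicate 1 is 12 h, 2 is 4 h, 3 is 8 h). Reads carried no molecular identifiers, so the limits given for 0 counts cover counting error only; SE values cover the spread among libraries. Some genes and 1 gene list are not reported here.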

Additional observations from a re-analysis of the deposited data

Results flagged for a closer look

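Of 106 named genes, 3 moved one way at every time with SPX5551 alone and the other way on top of ibrutinib. The share of all tested genes that did so was not computed, and these 3 interactions missed the adjusted threshold. PSAT1, of serine synthesis, had differences of 0.18, 0.34 and 0.26 at 4, 8 and 12 h without ibrutinib and -0.08, -0.09 and -0.25 with it, an interaction of -0.40 (edgeR, adjusted p = 0.766). MIB2, an E3 ubiquitin ligase of the Notch route, had -0.51, -0.09 and -0.38 without ibrutinib and 0.76, 0.51 and 0.42 with it, an interaction of 0.88 (edgeR, adjusted p = 0.634). IFI44L, an interferon-stimulated gene below 1 CPM in SPX5551 and DMSO, had -0.52, -0.78 and -0.51 without ibrutinib and 0.49, 0.20 and 0.63 with it, an interaction of 1.201 (edgeR, adjusted p = 0.788).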

How the results depend on the processing

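The count of 0 genes for SPX5551 versus DMSO held with other size factors, library size alone, a filter of 1 CPM in 3 libraries, DESeq2, limma-voom, limma-trend, the trend removed and no time term (0 without the replicate block). It was 1 with the 6 libraries alone, and 0 to 1 when each library was left out, the 1 (RPS27AP16) arising without the combination library of 4 h. With no filter on low counts it was 112 (13 higher, 99 lower), 133 for the slope and 32 for the interaction. All 112 had been tested before, and the prior degrees of freedom went from 9.86 to infinity; their median longest transcript was 9796 bases, against 3330 for all tested genes. Pairing columns as the descriptions do gave 791 (489 higher, 302 lower), by construction the comparison of ibrutinib with the combination. The interaction gave 2 with DESeq2, 1 with the trend removed, and 0 to 1 when each library was left out, the 1 arising without the ibrutinib library of 8 h. The length trend by median transcript (-0.102, the same with arrangements within times as a replicate block) ranged from -0.162 to -0.0151 when each library was left out, the latter without the DMSO library of 12 h. Of 106 named genes, 10 reversed, with the cause not tested. Their ranges when each library was left out, with the omitted library that turned the sign, were -0.073 to 0.22 for CXCR4 (SPX5551 4 h), -0.24 to 0.18 for ACKR3 (DMSO 12 h; 0.095 with SPX5551 4 h), -0.076 to 0.00495 for BTK (SPX5551 8 h), -0.35 to 0.19 for MIF (SPX5551 4 h; 0.12 with DMSO 4 h), -0.075 to 0.86 for BCL2A1 (SPX5551 12 h), -0.20 to 0.045 for GPR183 (SPX5551 12 h), -0.11 to 0.046 for PALD1 (DMSO 8 h), -1.07 to 0.099 for MT-ATP8 (DMSO 4 h), -0.60 to 0.18 for SNORD104 (SPX5551 4 h) and -0.17 to 0.39 for MZT2B (SPX5551 12 h; -0.083 with DMSO 12 h). Without the 4 h time ACKR3 had 0.039, MIF 0.32, MT-ATP8 0.016 and SNORD104 0.26, without 8 h PALD1 had 0.033, and without 12 h ACKR3 had 0.093, BCL2A1 -0.089 and MZT2B -0.23. With the trend removed PALD1 had 0.034. With 1 library per treatment and time, treatment by time variation and library variation cannot be told apart.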

Other observations

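Transcripts of the mitochondrial genome were lower at 4 h, where the 65 nuclear respiratory genes had a median difference of 0.02. All 13 protein-coding mitochondrial transcripts were lower with SPX5551 at 4 h, with a median difference of -0.39 on the log2 scale, while 5 were lower at 8 h and 7 at 12 h. Of all 14412 tested genes, 6687 were higher with SPX5551 at 4 h. In each of the 13 but MT-ND5, the DMSO library of 4 h stood above the other 5. MT-ND2, for example, had 6004 CPM in that library and 3664 to 4486 CPM in the other 5. The 3 of 13 that were lower at an unadjusted p under 0.05 (5.11% of all genes were) were MT-ND5 (-0.41 ± 0.14 SE), MT-ND4L (-0.51 ± 0.18) and MT-ATP8 (-0.66 ± 0.31). None passed the adjusted threshold. MT-ND4L overlaps MT-ND4 and MT-ATP8 overlaps MT-ATP6 on the same strand, so the counts of MT-ND4L and MT-ATP8 are uncertain. MT-ND5, a subunit of complex I, had 2154, 1778 and 2864 CPM in DMSO against 1767, 1545 and 1717 CPM in SPX5551 at 4, 8 and 12 h, with no overlap. MT-ATP8, a subunit of ATP synthase, had 531 CPM in the DMSO library of 4 h and 132 to 237 CPM in the other 5, and its log2 fold change was 0.099 without that library.

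IFIT2, an interferon-induced gene that binds viral RNA, was the 1 of 22 interferon-stimulated genes that was higher at an unadjusted p under 0.05, near the 3.22% of all genes, and the list's median was 0.0012. It had 0.695, 1.23 and 1.16 CPM in DMSO against 2.01, 1.90 and 2.77 CPM in SPX5551, with no overlap (log2 fold change 1.12 ± 0.28). IFI44L, of the same list, had 0.481, 0.715 and 0.604 CPM against 0.309, 0.380 and 0.396 CPM, lower with no overlap (-0.73 ± 0.37), and missed the unadjusted threshold. Of 19 p53 targets, 3 were higher and 0 lower at an unadjusted p under 0.05, against 3.22% and 5.11% of all tested genes. The list's median was 0.06. DDB2, a sensor of damaged DNA, was higher with no overlap (15.7, 17.2 and 21.1 CPM against 21.2, 21.6 and 25.6 CPM). The death receptor gene FAS (0.39) and SESN2 (0.30) were higher with overlap. MKI67, the proliferation marker with a long transcript, had 422, 498 and 844 CPM in DMSO against 413, 371 and 388 CPM in SPX5551. PAX5, which keeps B-cell identity, had 409, 456 and 680 CPM against 391, 368 and 361 CPM. In both genes the DMSO library of 12 h stood above the other 5.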
